A study of Homo sapiens with 9 samples.

Results

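The BCL2 family was examined through 10 of its genes in the parental human mammary epithelial line MCF10A and in 2 lines derived from it. The genes were the rows of the count table with the symbols BCL2, BCL2L1, MCL1, BCL2A1, BCL2L11, PMAIP1, BID, BIK, BAK1 and BAX, and they made up 10 of 60199 symbols. All 3 groups descend from MCF10A, a nonmalignant line in which CDKN2A is deleted and MYC amplified, grown in medium with horse serum, insulin, hydrocortisone, cholera toxin and EGF. MCF10A-CT (called CT) was untreated. MC26 came from unsorted MCF10A cells kept under long exposure to BMP2 and IL6, and its medium still held both factors. M1B26 came from sorted cells that carried the BMP receptor BMPR1B and were given BMP2 and IL6, from which 3 colonies grown in soft agar were picked and expanded with the same factors. Each group had 3 libraries from independent cultures, and whether the M1B26 libraries trace to different colonies is not given in the sources used here. The paper describes MC26 and M1B26 each as a cell line. The p-values below thus measure the spread between libraries of a line, and not between separate derivations of it. In MC26 the part of BMP2 and IL6 in a difference from CT cannot be told apart from that of this derivation. Sorting and colony selection apply to M1B26 alone, so their part in a difference of M1B26 from the other groups cannot be told apart from that of BMP2 and IL6.

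BCL2 family proteins decide whether the outer mitochondrial membrane is opened, the step that releases cytochrome c and starts the caspase cascade. Anti-apoptotic members (BCL2, BCL2L1, MCL1, BCL2A1) hold the other members in check through a groove on their surface. Effector members (BAK1, BAX) form the pore, and BH3-only members (BCL2L11, PMAIP1, BID, BIK) fill the groove or act on the effectors through a short helix called the BH3 region. In mammary epithelium the family is known for the clearing of cells from the lumen of acini and for cell death after detachment, in which BCL2L11 has a known role in MCF10A.

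Total counts per library ranged from 21425118 to 80076597, with CT replicate 2 the shallowest. Values are given in CPM, the counts in each 1000000 of a library, whose size was scaled by TMM (a trimmed mean of expression ratios). Over genes, Pearson's r of log2 CPM was 0.986 to 0.995 for pairs of libraries from 1 group. Counts of the 9 members that were tested ran from 82 for BIK to 67299 for MCL1 in a library. The 9 epithelial markers were present in every library, with KRT5 between 4633 and 7299 CPM and their summed level between 6956 and 9750 CPM. Of the markers of other cells, THY1 and CD3E were at 0 in all libraries and COL1A2, COL3A1, CDH5 and PTPRC had at most 2 counts. Their lists nevertheless moved between groups. COL1A1 moved the fibroblast list, CD14 the leukocyte list, and PECAM1 and KDR the endothelial list. PECAM1 averaged 5.04, 0.268 and 0.898 CPM in CT, MC26 and M1B26, and KDR 2.56, 0.892 and 2.62 CPM. The summed level of the 6 fibroblast markers was 7.43 to 9.04 CPM in CT, 9.25 to 11.7 in MC26 and 14.2 to 18.03 in M1B26, and that of the 5 leukocyte markers was 7.03 to 11.1, 9.75 to 17.9 and 34.0 to 47.9. Single epithelial markers moved too. EPCAM was at 65.6 to 74.4 CPM in CT, 11.7 to 19.1 in MC26 and 63.5 to 85.7 in M1B26. KRT14, a keratin of basal cells, was at 42.2 to 61.7 CPM in CT, 766 to 1521 in MC26 and 461 to 625 in M1B26, and TP63 was at 29.3 to 36.0, 76.9 to 78.7 and 73.8 to 81.7 CPM. The part of these shifts in the results below was not tested.

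The region that links the classes is the core of the BH3 region, read here as a leucine, any 3 residues, a glycine and an aspartate. The coding stretches that hold it are shown because the proteins of the 3 classes bind each other through this region or the groove that receives it. Capitals mark the 6 codons of the core in 81 bases of coding sequence, 5′ to 3′ on the sense strand, taken from the canonical transcripts of GENCODE v44.
BCL2: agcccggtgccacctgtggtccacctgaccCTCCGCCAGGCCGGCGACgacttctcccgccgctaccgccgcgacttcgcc
BCL2L1: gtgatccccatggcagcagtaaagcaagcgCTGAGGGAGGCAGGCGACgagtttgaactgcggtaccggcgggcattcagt
MCL1: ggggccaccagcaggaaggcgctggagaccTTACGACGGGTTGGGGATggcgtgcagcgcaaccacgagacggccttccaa
BCL2L11: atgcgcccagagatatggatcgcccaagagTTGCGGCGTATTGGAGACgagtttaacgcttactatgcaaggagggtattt
PMAIP1: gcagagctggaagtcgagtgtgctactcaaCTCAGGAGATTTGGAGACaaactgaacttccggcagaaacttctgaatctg
BID: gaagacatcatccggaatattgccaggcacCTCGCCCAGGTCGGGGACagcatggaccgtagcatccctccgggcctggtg
BIK: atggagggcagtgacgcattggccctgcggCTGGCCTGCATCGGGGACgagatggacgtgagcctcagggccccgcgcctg
BAK1: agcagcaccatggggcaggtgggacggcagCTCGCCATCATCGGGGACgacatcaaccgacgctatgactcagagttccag
BAX: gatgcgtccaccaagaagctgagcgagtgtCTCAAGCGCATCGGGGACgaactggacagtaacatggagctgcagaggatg
A single match to the core was found in each of these 9 coding sequences, at codons 97 to 102 of 239 in BCL2, 90 to 95 of 233 in BCL2L1, 213 to 218 of 350 in MCL1, 152 to 157 of 198 in BCL2L11 and 29 to 34 of 54 in PMAIP1. In BID it lay at codons 90 to 95 of 195, in BIK at 61 to 66 of 160, in BAK1 at 78 to 83 of 211 and in BAX at 63 to 68 of 192. The coding sequence of BCL2A1 (175 codons) had 0 matches to this pattern. At the level of bases the cores of BIK and BAK1 were the most alike, with 15 of 18 bases in common. The cores of BAK1 and of the anti-apoptotic genes BCL2L1 and MCL1 were the least alike, with 7 of 18.

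The first comparison asked which members differed between MC26 and the parental cells. PMAIP1 and BAK1, both pro-apoptotic, rose in MC26 together with the anti-apoptotic BCL2L1, and BID fell. Thus 4 of the 9 members tested had an adjusted p under 0.05 by edgeR, 3 higher and 1 lower. Over all 15717 genes tested the share was 38.7%, with 18.8% higher and 19.9% lower. The libraries of MC26 and CT were fully apart for 5 of the 9 members and for 50.3% of all genes. The median log2 fold change of the members was 0.16, against 0.00 over all genes. The call for BCL2L1 was lost in 8 of the 16 alternatives tried. In bulk RNA a lower level in every cell cannot be told apart from fewer cells that express the gene.

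The comparison of M1B26 with the parental cells asked the same question. MCL1, PMAIP1, BIK and BAK1 rose and BCL2 fell, so that 5 of 9 members changed, 4 higher and 1 lower, against 48.9% of all genes, 25.2% higher and 23.7% lower. The groups did not overlap for 7 members, against 59.0% of genes, and the members' median log2 fold change was 0.17. The last comparison set M1B26 against MC26. MCL1 and BID were higher in M1B26 and BCL2 and BCL2L1 were lower. These 4 of 9 members stood against 39.5% of all genes, 21.2% higher and 18.4% lower. Groups did not overlap for 6 members and for 53.5% of genes, and the median over the members was 0.14. In each comparison the share of members that changed was near the share of all genes. The comparisons share libraries, so they are not independent of each other.

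**Figure D1:**
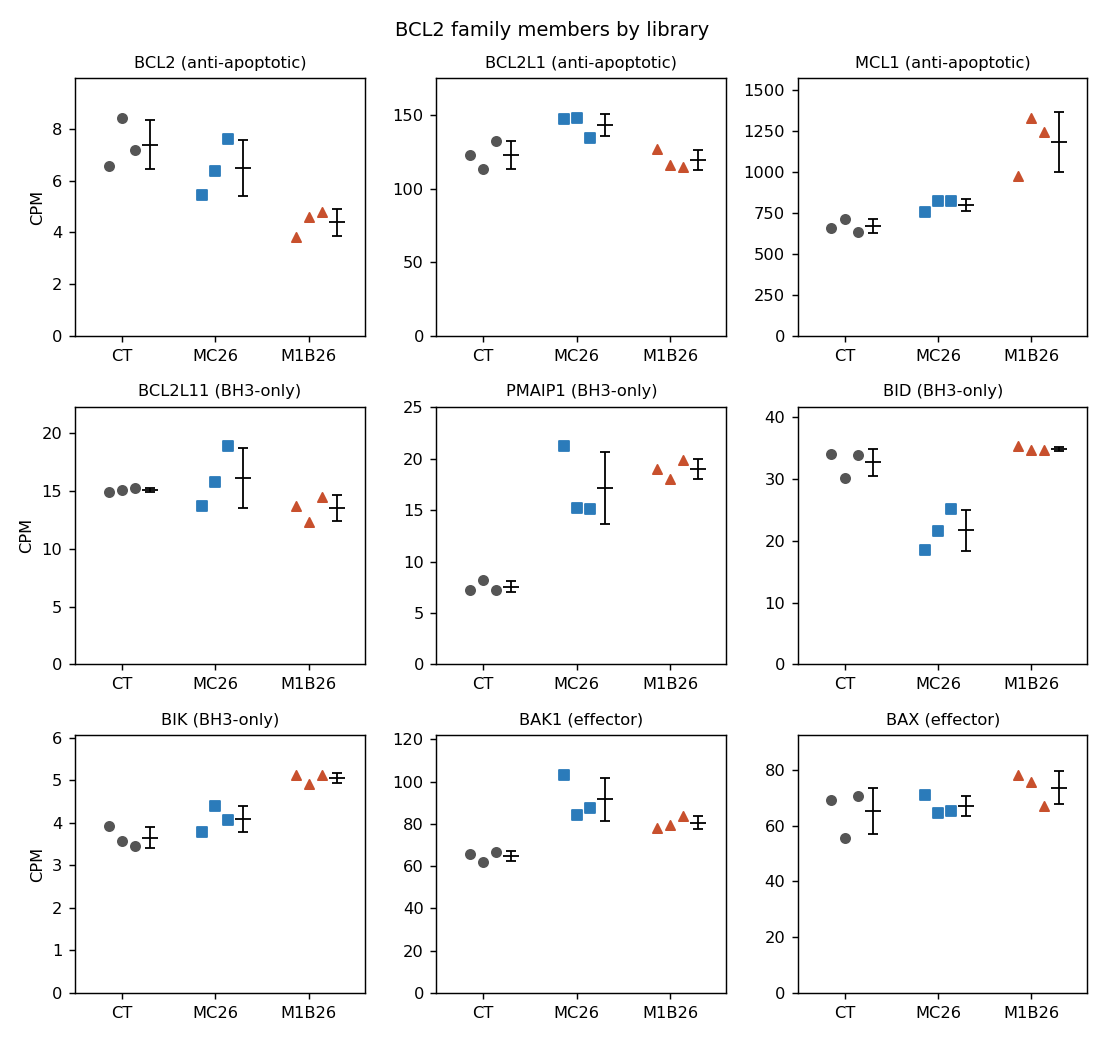
CPM of the 9 tested members in each library of CT, MC26 and M1B26 (points), with the group mean and SD (bars, n = 3) beside them and every axis starting at 0. PMAIP1 stood at 7.26 to 8.17 CPM in CT and at 15.1 or more in every MC26 and M1B26 library, MCL1 was highest in M1B26, and BID was lowest in MC26.

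Among the 3 anti-apoptotic members that were tested, MCL1 had the largest rise and BCL2 the largest fall, both in M1B26. MCL1 (ENSG00000143384, chr1:150560895-150579738, minus strand, 3 exons), a short-lived protein that binds BAK1 and the BH3-only proteins PMAIP1 and BCL2L11, was at 660, 714 and 635 CPM in CT replicates 1 to 3, at 757, 819 and 822 in MC26 and at 977, 1330 and 1243 in M1B26. No M1B26 library overlapped with those of the other groups, and M1B26 replicate 1 was the lowest of its group. MCL1 was 1.77-fold higher in M1B26 than in CT, a log2 fold change of 0.82 (edgeR adjusted p 9.14e-05, SE 0.10). It was also higher in M1B26 than in MC26, by 0.57 (edgeR adjusted p 0.00163, SE 0.10). In MC26 all 3 libraries lay above those of CT, but the log2 fold change of 0.26 (SE 0.10) had an adjusted p of 0.0711 by edgeR. That value was 0.0496 by DESeq2 and 0.0180 by edgeR without M1B26 replicate 1, so the call in MC26 depended on the fit.

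BCL2 (ENSG00000171791, chr18:63123346-63320128, minus strand, 3 exons), the founding member of the family and an inhibitor of BCL2L11 and BAX, was at 6.57, 8.43 and 7.17 CPM in CT, 5.45, 6.38 and 7.60 in MC26 and 3.81, 4.59 and 4.80 in M1B26. The M1B26 libraries were the lowest of all 9, whereas CT and MC26 overlapped. BCL2 was 1.66-fold lower in M1B26 than in CT, with a log2 fold change of -0.73 (edgeR adjusted p 0.00232, SE 0.15). Against MC26 the value was -0.56 (edgeR adjusted p 0.0146, SE 0.15), and without M1B26 replicate 1 it was -0.46 with an adjusted p of 0.0557 by edgeR. Between MC26 and CT it was -0.18 (edgeR adjusted p 0.376, SE 0.15).

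BCL2L1 (ENSG00000171552, chr20:31664452-31723989, minus strand, 3 exons) encodes the anti-apoptotic BCL-XL and, by splicing, the pro-apoptotic BCL-XS, which counts per gene do not separate. It was at 123, 113 and 132 CPM in CT, 147, 148 and 135 in MC26 and 127, 117 and 115 in M1B26, so MC26 stood slightly above both other groups without overlap. It rose in MC26 by 0.22 on the log2 scale (edgeR adjusted p 0.0392, SE 0.08). The adjusted p of that rise was above 0.05 when CT replicate 1 (0.0970), CT replicate 2 (0.0867), MC26 replicate 1 (0.112), MC26 replicate 2 (0.122) or M1B26 replicate 2 (0.0529) was left out of the edgeR fit. With total counts in place of TMM the log2 fold change was 0.14 (edgeR adjusted p 0.130). Between M1B26 and CT the log2 fold change was -0.04 (edgeR adjusted p 0.680, SE 0.08). M1B26 was lower than MC26, at -0.26 on that scale (edgeR adjusted p 0.0185, SE 0.08), and leaving out MC26 replicate 1, MC26 replicate 2, M1B26 replicate 2 or M1B26 replicate 3 gave adjusted p values of 0.0626, 0.0769, 0.0702 and 0.0689 by edgeR. An antisense RNA, ABALON, covers 41.3% of the exonic bases of BCL2L1 but had only 25 counts over the 9 libraries.

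BCL2A1 (ENSG00000140379, chr15:79960892-79971196, minus strand, 2 exons), an NF-kB target known mainly from blood cells, did not pass the filter on low counts and was not tested. Its counts were 1, 0 and 0 in CT, 5, 1 and 3 in MC26 and 7, 5 and 10 in M1B26. The summed counts of 1, 9 and 22 gave a ratio per total count of 25.8 for M1B26 over CT, with an exact 95% interval of 4.17 to 1065. For MC26 over CT the ratio was 12.4 (1.72 to 545), and for M1B26 over MC26 it was 2.08 (0.919 to 5.13). These intervals cover counting error only and not the spread between cultures. Without the filter the edgeR adjusted p was 0.0293 for MC26 against CT, 3.74e-04 for M1B26 against CT and 0.380 between the lines. Every M1B26 library held at least 5 counts, but the level was near the limit of detection in all 3 groups, since 3 counts is the floor below which a library cannot be told from 0.

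**Figure D2:**
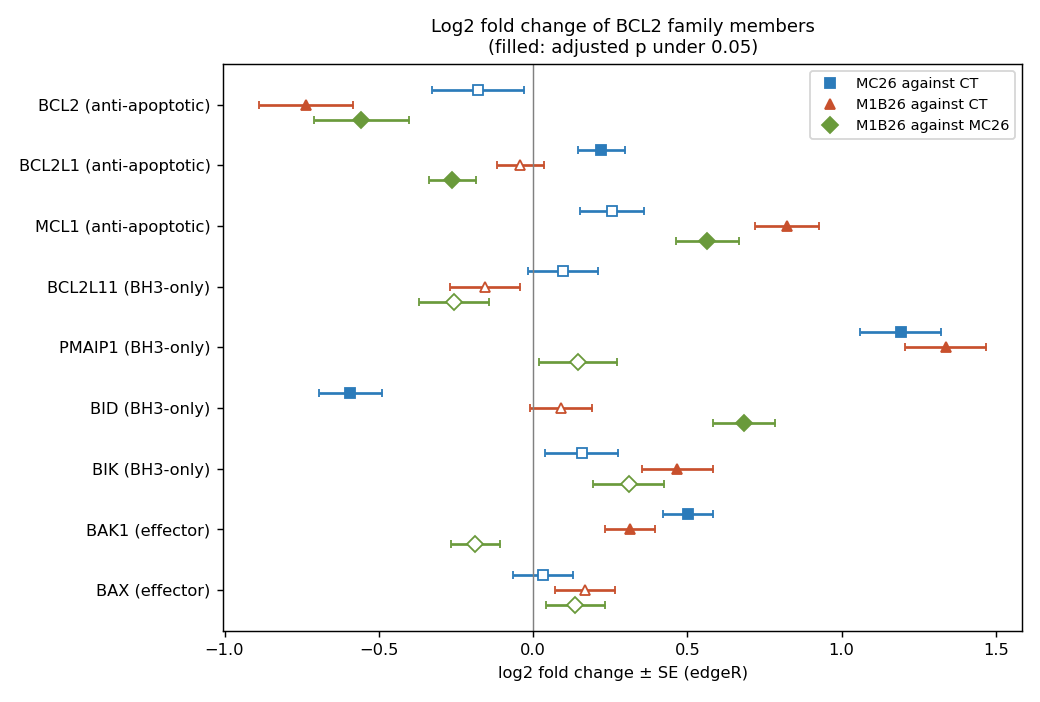
Log2 fold change of the 9 tested members in the 3 comparisons (points) with their SE (bars), filled where the adjusted p by edgeR was under 0.05. PMAIP1 lay above 1 in both lines against CT, BID lay at -0.59 in MC26 against CT and at 0.68 in M1B26 against MC26, and MCL1 and BCL2 moved in opposite directions in M1B26.

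Among the BH3-only members PMAIP1 rose in both lines and BID fell in MC26 alone. PMAIP1 (ENSG00000141682, chr18:59899996-59904305, plus strand, 2 exons) encodes NOXA, which neutralises MCL1 and BCL2A1. It was at 7.26, 8.17 and 7.27 CPM in CT, 21.2, 15.2 and 15.1 in MC26 and 19.0, 18.01 and 19.9 in M1B26. Every library of both derived lines was above every CT library, and MC26 replicate 1 was the highest of all. PMAIP1 was 2.28-fold higher in MC26 (log2 fold change 1.19, edgeR adjusted p 5.44e-05, SE 0.13) and 2.53-fold higher in M1B26 (1.34, edgeR adjusted p 1.62e-05, SE 0.13). The derived lines differed by 0.15 (edgeR adjusted p 0.385, SE 0.13), a value that became 0.33 with an adjusted p of 0.0216 by edgeR when MC26 replicate 1 was left out. PMAIP1 had the widest range of the 9 tested members, 1.32 in log2 CPM between group means.

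BID (ENSG00000015475, chr22:17734138-17774770, minus strand, 6 exons), which carries the signal of death receptors to mitochondria after cleavage by caspase 8, was at 34.0, 30.2 and 34.0 CPM in CT, 18.5, 21.6 and 25.1 in MC26 and 35.3, 34.8 and 34.7 in M1B26. The MC26 libraries were the lowest of the 9, with none reaching the level of another group. BID was 1.51-fold lower in MC26 than in CT (log2 fold change -0.59, edgeR adjusted p 0.00107, SE 0.10) and 1.61-fold higher in M1B26 than in MC26 (0.68, edgeR adjusted p 4.89e-04, SE 0.10). M1B26 and CT did not overlap, yet their log2 fold change was only 0.09 (edgeR adjusted p 0.480, SE 0.10).

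BIK (ENSG00000100290, chr22:43110750-43129712, plus strand, 5 exons), a BH3-only protein of the endoplasmic reticulum, was at 3.93, 3.58 and 3.45 CPM in CT, 3.78, 4.39 and 4.07 in MC26 and 5.12, 4.92 and 5.13 in M1B26. M1B26 lay above both other groups in every library. It was 1.38-fold higher in M1B26 than in CT (log2 fold change 0.47, edgeR adjusted p 0.00636, SE 0.12). Against MC26 the log2 fold change of 0.31 (SE 0.12) had an adjusted p of 0.0524 by edgeR, and MC26 against CT gave 0.16 (edgeR adjusted p 0.315, SE 0.12).

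BCL2L11 (ENSG00000153094, chr2:111119378-111168444, plus strand, 4 exons) encodes BIM, which binds all anti-apoptotic members. It was at 14.9, 15.1 and 15.2 CPM in CT, 13.7, 15.8 and 18.8 in MC26 and 13.7, 12.3 and 14.5 in M1B26. The MC26 libraries spanned the levels of CT, and those of M1B26 lay just below CT. No comparison passed the test, with log2 fold changes of 0.10, -0.16 and -0.26 (SE 0.11 each) and adjusted p values of 0.528, 0.277 and 0.0976 by edgeR in the order of the comparisons above. Without MC26 replicate 1 the last of these was -0.36 with an adjusted p of 0.0257 by edgeR. The RNA MIR4435-2HG overlaps 10.8% of the exonic bases of BCL2L11 on the other strand and had 15594 counts in all, so reads of the pair could not be told apart if the counting ignored strand.

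Of the effectors, BAK1 rose in both lines while no change passed the test for BAX. BAK1 (ENSG00000030110, chr6:33572547-33580293, minus strand, 6 exons), which sits in the mitochondrial membrane and is restrained by MCL1 and BCL-XL, was at 65.6, 61.9 and 66.7 CPM in CT, 103, 84.2 and 87.6 in MC26 and 78.1, 79.6 and 83.9 in M1B26. The groups did not overlap in any pair, and MC26 replicate 1 was the highest library. BAK1 was 1.42-fold higher in MC26 (log2 fold change 0.50, edgeR adjusted p 7.37e-04, SE 0.08) and 1.24-fold higher in M1B26 (0.31, edgeR adjusted p 0.00805, SE 0.08), and M1B26 against MC26 gave -0.19 (edgeR adjusted p 0.0879, SE 0.08). BAX (ENSG00000087088, chr19:48954815-48961798, plus strand, 6 exons), the effector that is mostly cytosolic until activated, was at 69.4, 55.7 and 70.8 CPM in CT, 71.1, 64.5 and 65.2 in MC26 and 78.3, 75.6 and 67.1 in M1B26. Its groups overlapped in every comparison, with log2 fold changes of 0.03, 0.17 and 0.14 (SE 0.10 each) and adjusted p values of 0.825, 0.170 and 0.282 by edgeR.

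Levels of different members were compared per kilobase of exonic length within each library, which leaves the scaling between libraries out. These shares describe RNA and were not tested. Each class total holds only the listed members, so BAD, BBC3, BMF and BCL2L2, described below, are outside it. BAD, a further BH3-only gene with 1708 exonic bases, averaged 44.6, 43.2 and 53.8 CPM in CT, MC26 and M1B26. BID, with 4420, averaged 32.7, 21.7 and 34.9. BCL2L2, a further anti-apoptotic gene, averaged 39.7, 37.9 and 35.3 CPM in these groups, against 7.39, 6.48 and 4.40 for BCL2. The orders below thus hold among the listed members only. Of the anti-apoptotic total, the part of MCL1 was 78.2% ± 2.26 for CT, 78.7% ± 1.40 for MC26 and 86.6% ± 2.57 for M1B26 (SD, n = 3). Its share ran from 76.1% to 80.6% over the CT and MC26 libraries and from 83.6% to 88.3% in M1B26, without overlap. BCL2L1 held most of the rest, at 21.3% ± 2.28, 20.9% ± 1.43 and 13.2% ± 2.55 (SD, n = 3). BCL2 was at 0.426%, 0.314% and 0.160%, and BCL2A1 did not exceed 0.0845% in any library. Without a correction for length BCL2 was at 0.923%, 0.680% and 0.338% of the counts of the class. The order MCL1, BCL2L1, BCL2, BCL2A1 was the same in all 9 libraries.

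Among the listed BH3-only members, the first by exonic length in MC26 and M1B26 was not that of CT. BID was first in CT, at 43.7% ± 2.20 of the class against 20.5% ± 1.83 for PMAIP1. In MC26 PMAIP1 was first at 40.3% ± 7.41 and BID at 25.3% ± 3.97, with PMAIP1 at 48.8% in MC26 replicate 1 and at 37.0% and 35.1% in the others. In M1B26 the pair stood closer, with PMAIP1 at 36.3% ± 0.773 and BID at 33.1% ± 1.01 (SD, n = 3). BIK stayed between 19.98% and 24.6% in all libraries, and BCL2L11 was at 13.2%, 12.3% and 8.36% in CT, MC26 and M1B26. Without a correction for length BIK was at 6.20%, 6.92% and 6.98%, BCL2L11 at 25.5%, 27.2% and 18.6% and PMAIP1 at 12.9%, 29.2% and 26.2% in those groups, and by the canonical transcript BIK was at 14.9%, 16.2% and 15.6%. With the length of the canonical transcript in place of all exonic bases BID remained first in all 3 groups, at 58.2%, 37.7% and 47.2% against 15.5%, 34.2% and 29.4% for PMAIP1, so which of them led in MC26 and M1B26 depended on the length used. With either length, and without one, the BID share was lower and the PMAIP1 share higher in both lines than in CT.

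Of the effector total BAK1 was 53.8% ± 2.32 for CT, 61.5% ± 1.30 for MC26 and 56.1% ± 2.89 for M1B26 (SD, n = 3), and BAX was the remainder. Their order turned with the length used, since BAX has 2587 exonic bases but 795 in its canonical transcript, with which BAK1 was at 26.8%, 33.4% and 28.7%. Over all 10 members the anti-apoptotic class held 65.8% ± 2.17 in CT, 65.3% ± 2.42 in MC26 and 71.0% ± 2.94 in M1B26. The effectors held 26.1% ± 2.05, 26.9% ± 2.27 and 21.2% ± 2.13, and the BH3-only class 8.11% ± 0.161, 7.78% ± 0.206 and 7.81% ± 0.848 (SD, n = 3). The anti-apoptotic ranges overlapped between CT, 64.3% to 68.3%, and M1B26, 67.7% to 73.3%. Those of the effectors, 23.8% to 27.6% in CT and 19.7% to 23.6% in M1B26, did not. Without a correction for length the effectors held 13.2%, 13.6% and 10.2% and the anti-apoptotic class 80.9%, 81.3% and 85.1% of the counts, and the BH3-only class 5.97%, 5.06% and 4.77%. With the length of the canonical transcript the anti-apoptotic class held 61.3%, 62.9% and 67.7%. The effectors then held 31.4%, 30.7% and 25.6%, and the BH3-only class 7.25%, 6.43% and 6.70%. The order of CT and MC26 in the anti-apoptotic and effector classes thus depended on the length used.

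**Figure D3:**
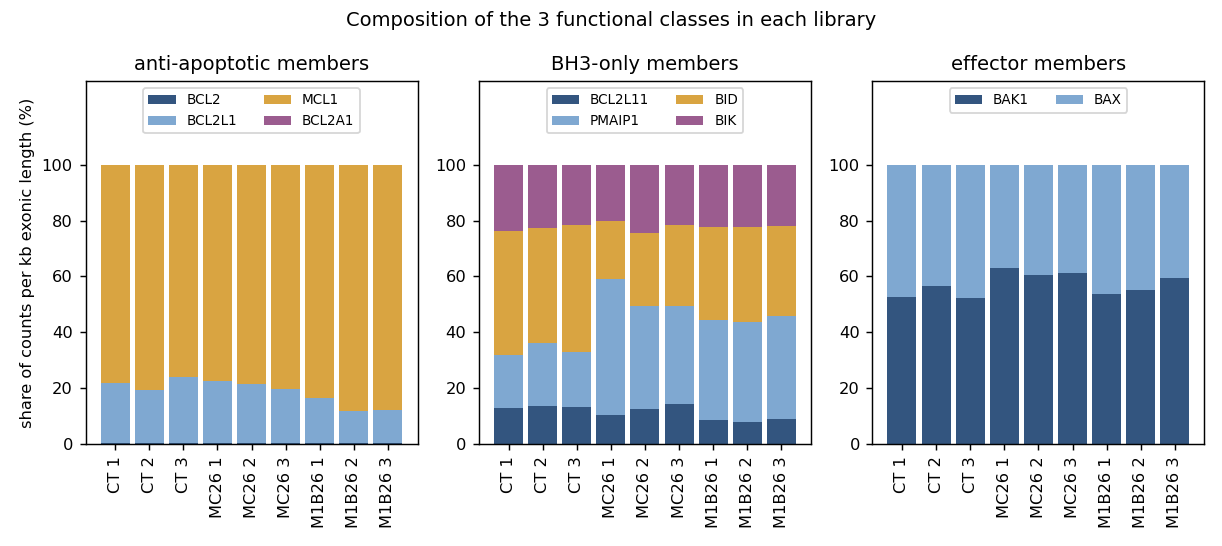
Share (%) of each member in the counts per kilobase of exonic length of its class, for each of the 9 libraries (stacked bars). BCL2 and BCL2A1 are too small to be seen in the anti-apoptotic panel, where MCL1 widens in M1B26, and the PMAIP1 segment of the BH3-only panel is wider in every MC26 and M1B26 library than in CT.

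The other genes of the pathway were read from 4 lists. Over all genes tested, 18.8% were called higher and 19.9% lower in MC26 against CT. The shares were 25.2% and 23.7% in M1B26 against CT, and 21.2% and 18.4% in M1B26 against MC26. Among 13 further genes of the family, 10 were tested, and BCL2L10, BCL2L14 and BCL2L15 had too few counts. Of the 10, 1 was higher and 4 lower in MC26 than in CT, 4 rose and 3 fell in M1B26 against CT, and 4 were higher and 0 lower in M1B26 than in MC26, with 6 not called by edgeR in that comparison. Their median log2 fold changes were -0.23, -0.16 and 0.38. BBC3, which encodes the BH3-only protein PUMA, was at 7.76, 5.15 and 8.70 CPM in CT, 2.34, 3.14 and 5.36 in MC26 and 4.91, 6.25 and 6.76 in M1B26. It fell in MC26 by 1.01 on the log2 scale (edgeR adjusted p 0.0140, SE 0.28), although the groups overlapped and the adjusted p by edgeR was 0.0540 without CT replicate 3 and 0.0565 without MC26 replicate 2. M1B26 against CT gave -0.29 (edgeR adjusted p 0.390). BBC3 and PMAIP1, both of the BH3-only class, thus had log2 fold changes of opposite sign in MC26.

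BAD, a BH3-only protein controlled by phosphorylation, had log2 fold changes of -0.05, 0.27 and 0.32, of which the last passed the test (edgeR adjusted p 0.0300). The value of 0.27 in M1B26 against CT had an adjusted p of 0.04998 by edgeR, which lay between 0.0529 and 0.143 when any library other than CT replicate 3 was left out. The difference from MC26 was lost without CT replicate 1 (0.0518), MC26 replicate 2 (0.117), M1B26 replicate 1 (0.0808) or M1B26 replicate 2 (0.0993), all adjusted p by edgeR. BMF, a BH3-only sensor of detachment, was at 0.491, 0.285 and 0.160 CPM in CT, MC26 and M1B26. Its counts were 40, 12 and 31 in CT, 5, 9 and 21 in MC26 and 3, 5 and 16 in M1B26. It fell in M1B26 against CT (-1.52, edgeR adjusted p 0.0333, SE 0.53), where M1B26 replicate 1 was at the floor of 3 counts. Leaving out CT replicate 1, CT replicate 2, M1B26 replicate 1 or M1B26 replicate 2 took the adjusted p by edgeR to 0.110, 0.0630, 0.117 and 0.107. BCL2L2, an anti-apoptotic member, passed the test in no comparison, with log2 fold changes of -0.07, -0.17 and -0.10.

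BNIP3L and BNIP3, mitophagy receptors with a BH3-like part, fell in MC26 and were higher in M1B26 than in MC26, and BID did likewise. BNIP3L had log2 fold changes of -1.14 in MC26 against CT (edgeR adjusted p 1.58e-04) and 0.99 in M1B26 against MC26 (edgeR adjusted p 4.68e-04). For BNIP3 they were -0.36 (edgeR adjusted p 0.00249) and 0.69 (edgeR adjusted p 4.59e-05), and BNIP3 also rose in M1B26 against CT by 0.33 (edgeR adjusted p 0.00253). BCL2L12 rose in both lines against CT by 0.58 (edgeR adjusted p 0.00147) and 0.56 (edgeR adjusted p 0.00124). BOK, an effector-like member, rose in M1B26 by 0.61 against CT (edgeR adjusted p 0.00113) and by 0.45 against MC26 (edgeR adjusted p 0.00895), and BCL2L13 fell in M1B26 against CT by 0.23 (edgeR adjusted p 0.00890).

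Downstream of the members, all 13 genes of the apoptosome and caspase list were tested. In MC26 6 were higher and 1 lower than in CT, 4 rose and 1 fell in M1B26 against CT, and between the lines 2 were higher and 2 lower in M1B26, with medians of 0.13, 0.09 and 0.00. Over all genes 38.7%, 48.9% and 39.5% were called in either direction in these comparisons. CASP8, which cleaves BID, rose by 0.32 in MC26 (edgeR adjusted p 0.00602) and by 0.30 in M1B26 (edgeR adjusted p 0.00647). Between the lines it differed by -0.02 (edgeR adjusted p 0.839). CASP10, an initiator caspase next to CASP8 on chromosome 2, rose from 0.5002 to 2.61 CPM in M1B26 (2.40, edgeR adjusted p 1.65e-05, SE 0.24). DIABLO, which is released from mitochondria and blocks inhibitors of apoptosis, rose in M1B26 by 0.52 against CT (edgeR adjusted p 1.21e-04) and 0.33 against MC26 (edgeR adjusted p 0.00333). HTRA2, a mitochondrial protease, rose in MC26 by 0.35 (edgeR adjusted p 0.00981), and AIFM1, a flavoprotein of the mitochondrial intermembrane space, fell in both lines (-0.27 and -0.28, edgeR adjusted p 0.00938 and 0.00602). CASP2, another caspase, was lower in M1B26 than in MC26 (-0.29, edgeR adjusted p 0.00283). Against CT it rose in MC26 (0.30, edgeR adjusted p 0.00196) and was at 0.02 in M1B26 (edgeR adjusted p 0.828).

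All 6 inhibitors of apoptosis were tested, and in each comparison 1 was higher, 2 lower and 3 not called, with medians of -0.02, -0.27 and -0.13. The shares of all genes called in either direction were 38.7%, 48.9% and 39.5% in the same order. BIRC2, a ubiquitin ligase of TNF receptor complexes, rose in MC26 from 46.9 to 73.5 CPM (0.65, edgeR adjusted p 0.00613, SE 0.15). It was at 91.0, 74.1 and 55.4 CPM in the MC26 libraries, and its lower level in M1B26 against MC26 (-0.48, edgeR adjusted p 0.0256) became -0.30 with an adjusted p of 0.101 by edgeR without MC26 replicate 1. Without MC26 replicate 2, M1B26 replicate 1 or M1B26 replicate 2 the adjusted p of that difference was 0.0681, 0.0863 and 0.0726 by edgeR. BIRC3, its close relative, fell in MC26 (-0.77, edgeR adjusted p 0.0230), with adjusted p values by edgeR of 0.0738 without CT replicate 2 and 0.0743 without MC26 replicate 1. BIRC5, which encodes survivin and also serves in mitosis, rose in M1B26 by 0.85 against CT (edgeR adjusted p 1.46e-05) and by 0.69 against MC26 (edgeR adjusted p 1.19e-04). BIRC6 fell in M1B26 by 0.66 and 0.53 in the same comparisons (edgeR adjusted p 6.60e-04 and 0.00388). NAIP, at most 1.59 CPM on average in a group, fell in both lines (-0.64 and -0.67, edgeR adjusted p 0.0283 and 0.0171). The fall in MC26 was lost without CT replicate 1 (0.141), MC26 replicate 1 (0.0938) or MC26 replicate 2 (0.0912), and that in M1B26 without CT replicate 1 (0.0919) or M1B26 replicate 2 (0.0661), all adjusted p by edgeR.

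Upstream, 13 regulators were tested, of which 4 were higher and 2 lower in MC26, 3 higher and 6 lower in M1B26 against CT, and 2 higher and 3 lower in M1B26 against MC26, with medians of -0.10, -0.10 and -0.07. Calls in either direction took in 38.7%, 48.9% and 39.5% of all genes in these comparisons. TP63, a transcription factor of basal epithelium, rose from 31.9 to 78.1 CPM in MC26 and 79.0 in M1B26 (1.29 and 1.31, edgeR adjusted p 1.54e-06 and 9.36e-07). FOXO3, an activator of BCL2L11, fell in both lines (-0.65 and -0.86, edgeR adjusted p 3.78e-04 and 3.94e-05).

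HUWE1, a ubiquitin ligase of MCL1, fell in M1B26 by 0.70 against CT (edgeR adjusted p 6.24e-05) and 0.48 against MC26 (edgeR adjusted p 0.00125). E2F1, a transcription factor of the cell cycle, was lower in M1B26 than in MC26 (-0.72, edgeR adjusted p 7.77e-04). BECN1, an autophagy protein with a BH3 region, rose in both lines (0.36 and 0.66, edgeR adjusted p 0.00100 and 9.65e-06), as did BAG3, a co-chaperone (0.44 and 0.37, edgeR adjusted p 0.00777 and 0.0136). FBXW7, another ligase of MCL1, was lower in M1B26 than in MC26 (-0.22, edgeR adjusted p 0.0324). The adjusted p of this difference was above 0.05 without MC26 replicate 1 (0.0607), MC26 replicate 3 (0.0938) or M1B26 replicates 1, 2 and 3 (0.0799, 0.0814 and 0.0701), all by edgeR. Against CT, FBXW7 was at 0.03 in M1B26 (edgeR adjusted p 0.737) and at 0.25 in MC26 (edgeR adjusted p 0.0180). The rise in MC26 was lost without CT replicate 1 (0.0667), CT replicate 3 (0.0585) or MC26 replicate 3 (0.0527), all adjusted p by edgeR.

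**Figure D4:**
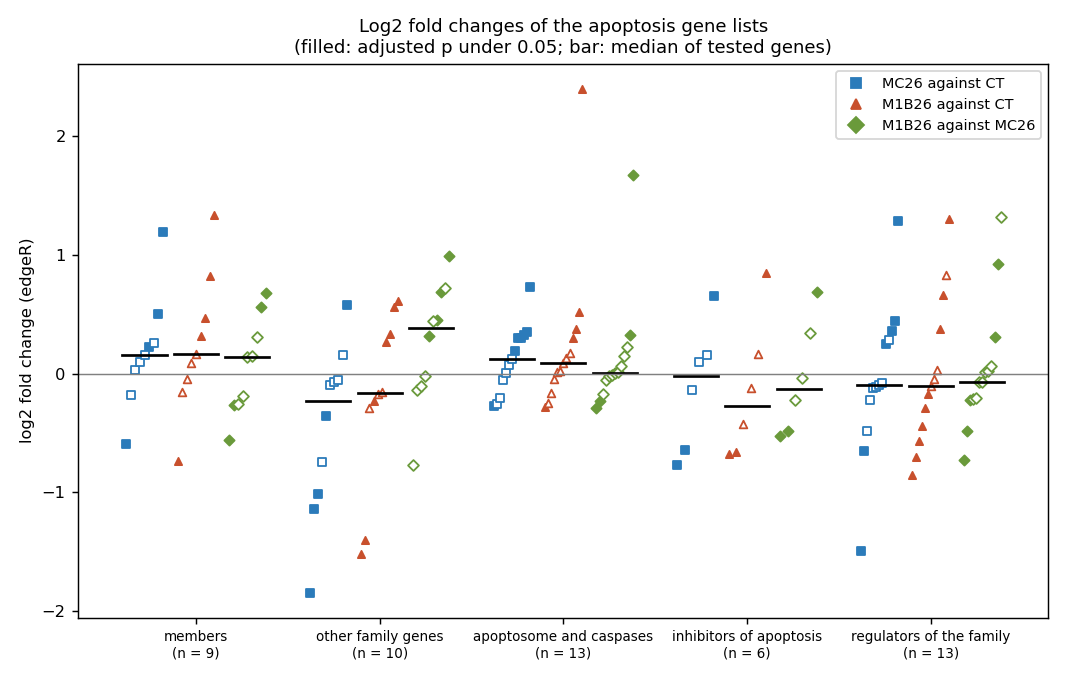
Log2 fold change of each tested gene of the members and of the 4 pathway lists in the 3 comparisons, filled where the adjusted p by edgeR was under 0.05, with the median of each list (bar). The medians lie between -0.27 and 0.38, and CASP10 in M1B26 against CT has the highest value, 2.40.

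The genes whose pattern was most like that of PMAIP1 were taken from 12866 genes averaging 1 CPM or more, by the root mean square difference of centred log2 CPM over the 9 libraries. They were CD59 (0.12), HMGA2 (0.14), PROCR (0.15), MARK1 (0.16) and ADGRF4 (0.16). CD59 was at 308, 673 and 702 CPM in CT, MC26 and M1B26, and HMGA2 at 42.7, 104 and 109. Since all 5 were chosen for likeness to PMAIP1 in these same libraries, their higher means in both lines than in CT follow from the choice.

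Promoter windows from RefSeq on GRCh38.p14, 250 bases before to 50 after each listed start, were found for 8 of the 10 members, MCL1 and BIK being the others. They were searched on both strands for TTCNNNGAA, the letters bound by STAT factors downstream of IL6, for GGCGCC, a BMP response element, and for GGANTTTCC, an NF-kB motif, each counted separately. GGCGCC, which reads the same on both strands, lay in 4 of the 8 members (BCL2L11, PMAIP1, BID and BAX) and in 22.0% of the 27305 genes with a window. A gene with several starts has several windows, 5 for BID, and by window the letters lay in 7 of the 13 of the members and in 19.2% of all 35116. Windows of BID overlap, so the same match is counted more than once among the 7. These 7 windows held 67.3% to 78.0% G and C, against a median of 58.7% over all windows. The window of BCL2, without the letters, held 70.7%. The part of base composition in these counts was not tested. The STAT letters lay in BCL2A1 alone and in 9.38% of genes, and the NF-kB letters in 0 of the 8 and in 2.01% of genes. The stretches of PMAIP1 and BID are shown because these members had the largest changes of their class, with GGCGCC in capitals.
PMAIP1 (chr18:59899768-59899823, plus strand): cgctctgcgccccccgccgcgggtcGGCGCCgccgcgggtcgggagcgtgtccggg
BID (chr22:17774143-17774198, minus strand): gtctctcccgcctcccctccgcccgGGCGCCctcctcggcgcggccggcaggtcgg
In PMAIP1 the match began at -203 from the start site, and in the BID stretch shown at -190 and -131 from 2 of its listed starts. BID had a further match, within chr22:17774447-17774502, that began at -8 and 18 from 2 others of its starts. PMAIP1 and BID moved in opposite directions in MC26, and BCL2L11 and BAX, which hold the same letters, passed the test in no comparison. A match of letters is a description of the sequence and not of binding.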

How the data were processed

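Poly-A RNA of 9 MCF10A-derived cultures was sequenced in paired-end mode, with groups and replicate numbers taken from titles. The authors deposited raw counts per gene symbol, made from reads aligned to GRCh38 with STAR 2.7.3a. For quantification the study names Salmon 1.1.0 on protein-coding genes, whereas the deposited table holds whole numbers and also non-coding genes, so it is uncertain whether Salmon made it. Whether counting used strand and how it handled multiply aligned reads are not given in the sources used here.

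The analysis used edgeR 4.0.16 under R 4.3.3. The filter filterByExpr with a minimum count of 10 left 15717 genes, TMM gave scaling factors of 0.968 to 1.07, and all 9 libraries entered a quasi-likelihood fit that had group as its single factor. The p-values from glmQLFTest are 2-sided and adjusted by Benjamini-Hochberg over all genes tested, and a gene was called changed at an adjusted p under 0.05. SE is the absolute log2 fold change over the square root of F, and the biological coefficient of variation was 10.4%. Depth limits the low members most, with counts of BIK between 82 and 283 per library.

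All 10 members were named, with BBC3, BMF, BAD and BCL2L2 whatever their values. From each pathway list and comparison up to 3 called genes at each end of the log2 fold changes were added, if a group mean reached 1 CPM. The members and lists were chosen with earlier results of these data known. The lists of mammary epithelial, hormone receptor, fibroblast, leukocyte and endothelial markers served to describe the cells. Of the hormone receptor markers PGR had at most 1 count and ESR1 at most 24, whereas GATA3 had 322 to 1507. Against CT, GATA3 fell in MC26 and M1B26 (-0.45 and -1.18, edgeR adjusted p 0.00663 and 9.65e-06). ESR1 rose in both (1.07 and 2.05, edgeR adjusted p 0.0440 and 5.19e-04). The summed level of the 4 endothelial markers was 7.53 to 7.78 CPM in CT, 1.02 to 1.39 in MC26 and 2.84 to 4.91 in M1B26.

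Positions, exonic lengths, coding sequences and overlaps came from GENCODE v44 on GRCh38, and promoter windows from RefSeq. Alternatives were RLE factors, total counts without scaling factors, DESeq2 1.42.0, no filter, a filter at a mean of 50 counts, a fit of the 6 libraries of a comparison, a block on replicate number, and omission of each library in turn. For the shares per length, no correction for length was also tried, and the length of the canonical transcript was added after seeing the data. The labels name no batch of library preparation, and one that followed the groups cannot be told apart from them. Single values of some listed genes are not reported here.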

Additional observations from a re-analysis of the deposited data

Results flagged for a closer look

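For 4 of the 9 members tested the change against CT differed between the derived lines, by the test of M1B26 against MC26 in edgeR, which is the difference between their changes against CT. The same test called 39.5% of all genes. MCL1 was higher in M1B26 than in MC26 by 0.57 on the log2 scale, with changes against CT of 0.82 in M1B26 and 0.26 in MC26. BID was higher in M1B26 by 0.68, since it fell in MC26 by 0.59 and was at 0.09 in M1B26. BCL2 differed by -0.56, with -0.73 in M1B26 and -0.18 in MC26, and this difference had an adjusted p of 0.0557 by edgeR without M1B26 replicate 1. BCL2L1 differed by -0.26, with 0.22 in MC26 and -0.04 in M1B26, and was lost without any of 4 libraries, as given beside its values above. Groups of 3 libraries are too small for a test of single outlying libraries.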

How the results depend on the processing

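Over the 16 alternatives the count of members called ranged from 3 to 6 in MC26 against CT, from 5 to 6 in M1B26 against CT and from 3 to 5 in M1B26 against MC26, all within 1.5 times of the values in the report. The counts over all genes ranged from 4524 to 6391, from 6282 to 7994 and from 4503 to 7166. Of 432 values of single members under an alternative, 412 kept their side of the threshold, 13 lost the call, 7 gained it and 0 called values changed sign. BCL2L1 accounted for 12 of the 13 losses and BCL2 for the other. Of the 7 gains 5 were MCL1 in MC26 against CT, with adjusted p by edgeR of 0.0231 without a filter, 0.0323 with only the 6 libraries compared and 0.0180 without M1B26 replicate 1. The cause of these changes was not tested. Total counts without scaling factors moved the median of all genes by -0.08, -0.09 and -0.02.

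The correlation of deviations from the group means, across genes, lay between -0.11 and 0.14 for same-numbered libraries. For different-numbered ones it lay between -0.13 and 0.12, so no strong pairing by replicate number was seen. Between M1B26 and MC26 the same-numbered values were 0.08, 0.04 and 0.14, and the different-numbered ones ran from -0.11 to 0.04. A weak pairing of these lines is thus not excluded. With the replicate number as a block, 4, 5 and 4 members and 5879, 7513 and 6009 genes were called in the order above. Under this block BCL2L1 in MC26 against CT had an adjusted p of 0.0529 by edgeR and MCL1 of 0.0445.

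Without correction for length MCL1 held 83.7%, 84.2% and 90.3% of the anti-apoptotic counts in CT, MC26 and M1B26, and BAK1 held 49.9%, 57.7% and 52.3% of the effector counts. BID led the listed BH3-only members in all 3 groups, at 55.4%, 36.7% and 48.2%.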
